A study of Mus musculus with 6 samples.

Results

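The 10 genes described here encode the simple keratins Krt7, Krt8, Krt18 and Krt19, the junction and adhesion proteins Epcam, Cdh1, Cldn4, Cldn7 and Dsp, and the epithelial transcription factor Elf3. They are 10 of the 31053 genes in the tables and 10 of the 14912 that passed a filter on low counts. They were chosen by their counts in these same 6 libraries, so their levels, their fraction ratios and their courses over the days are given below as a description, with no test. Tests are kept for 81 related epithelial genes that are not among the 10. Messenger RNA was measured in cells of fetal lung from wild-type C57BL6 mice at E17. The lungs were dissociated with liberase, and the cells were frozen in DMSO and later plated on a thin coat of Matrigel, an extract of basement membrane. The medium, made for haematopoietic stem and progenitor cells, held IL6, SCF, FGF, VEGF and Flt3 among its factors, and the wells were washed on day 3. The suspension group is the cells floating in the wells on days 4, 5 and 6, and the adherent group is the attached cells of the same days, detached with accutase and then sorted to enrich live cells with surface VE-cadherin, an adhesion protein of endothelium. All 6 libraries share the genotype, age, tissue, freezing and medium, and there was 1 droplet library (10x 3′ v3) per fraction and day. Only the adherent cells were sorted, so attachment and the sort cannot be told apart.

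Simple keratins form the intermediate filaments of single-layered epithelia, where a type II chain (Krt7, Krt8) pairs with a type I chain (Krt18, Krt19) in each filament. Cdh1 (E-cadherin) and Epcam join neighbouring epithelial cells at their membranes, Cldn4 and Cldn7 are claudins of the tight junction that seals the layer, and Dsp (desmoplakin) ties keratin filaments to desmosomes. In the fetal lung these genes mark the branching epithelium that gives rise to airway and alveolar cells, and several of the keratins are also made by mesothelium, the outer covering of the lung. Blood cells and endothelium carry other junction proteins. Snai1, Snai2, Zeb1, Zeb2, Twist1 and Twist2 are transcription factors known to repress the epithelial state, and the Snai and Zeb proteins are known to bind the E-box CAGGTG.

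Because the 10 genes share a course over the libraries, the DNA before their start sites was compared. RefSeq promoters of 300 bases, 250 before the start site and 50 after it, were at hand for 8 of the 10 genes on GRCm38.p6, the assembly also called mm10. Cdh1 and Krt19 had no entry. Shown first are the 250 bases before the start sites of the keratin pair Krt8 and Krt18, the surface protein Epcam and the claudin Cldn4, then windows of 26 bases around the matches of Krt7, Cldn7, Dsp and Elf3 and the second match of Cldn4. All run 5′ to 3′ on the gene's strand, and the capitals mark CAGGTG or its reverse complement CACCTG.
Krt8 promoter, chr15:102004343-102004592, minus strand: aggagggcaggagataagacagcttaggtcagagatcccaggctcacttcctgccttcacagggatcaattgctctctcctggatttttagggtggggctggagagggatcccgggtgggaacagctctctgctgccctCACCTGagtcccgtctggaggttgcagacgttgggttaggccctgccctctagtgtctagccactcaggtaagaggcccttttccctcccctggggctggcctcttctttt
Krt18 promoter, chr15:102027966-102028215, plus strand: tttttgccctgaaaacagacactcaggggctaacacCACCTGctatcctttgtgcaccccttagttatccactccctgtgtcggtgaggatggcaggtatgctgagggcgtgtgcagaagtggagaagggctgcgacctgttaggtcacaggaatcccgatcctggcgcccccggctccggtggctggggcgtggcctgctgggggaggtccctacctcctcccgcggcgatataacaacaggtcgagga
Epcam promoter, chr17:87635729-87635978, plus strand: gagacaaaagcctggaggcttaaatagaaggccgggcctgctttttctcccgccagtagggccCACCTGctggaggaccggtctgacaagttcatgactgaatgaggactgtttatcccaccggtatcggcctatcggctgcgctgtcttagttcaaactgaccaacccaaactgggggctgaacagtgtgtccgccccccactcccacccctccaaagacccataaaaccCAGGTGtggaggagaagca
Cldn4 promoter, chr5:134946935-134947184, minus strand: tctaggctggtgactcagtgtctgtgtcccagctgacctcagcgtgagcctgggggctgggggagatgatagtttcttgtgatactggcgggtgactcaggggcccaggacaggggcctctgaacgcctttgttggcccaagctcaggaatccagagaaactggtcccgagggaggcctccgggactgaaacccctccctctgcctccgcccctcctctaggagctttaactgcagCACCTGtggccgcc
Krt7, chr15:101412349-101412374, plus strand: gccctgtcccCACCTGtgtgcgctca
Cldn4, chr5:134946908-134946933, minus strand: tttcttgttgCAGGTGcaggcaggaa
Cldn7, chr11:69965314-69965339, plus strand: tcttcctcttCACCTGgacgaggagg
Cldn7, chr11:69965354-69965379, plus strand: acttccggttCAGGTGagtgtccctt
Dsp, chr13:38151287-38151312, plus strand: agaagccgacCAGGTGtggcctgggc
Elf3, chr1:135258597-135258622, minus strand: atatgcaaatCACCTGggacagggag

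The E-box CAGGTG, read on both strands, was present in all 8 promoters with an entry, counting Cldn7 by the one of its 2 listed start sites that held it. It was present in 20.2% of all 32851 promoters, in 22.6% of the 27025 genes they belong to, and in 21% of the tested genes with an entry. It was also present in 22 of 44 related epithelial genes with an entry (50%). Only 44 of the 81 genes of that list had one, so this share covers a part of the list, and it was not tested. Krt7, Krt8, Krt18, Dsp and Elf3 had 1 match and Epcam, Cldn4 and Cldn7 had 2. Counted from the start site, the first bases of the matches lay between position -214, in Krt18, and position 12, in Cldn4. Of the 11 other motifs searched, none of which can be read inside CAGGTG, the GC box GGGCGG was found in 5 of the 8 genes, against 35.7% of promoters and 66.2% of the tested genes. The TATA box TATAAA was found in Krt8 alone, against 9.23% of the tested genes, and the grainyhead-like motif AACNGGTT in none, against 2.16%. A match in these letters is a description and not a binding site, and the choice of this motif among 12 was not tested.

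The libraries were deep. Gene counts summed to between 43805361 and 57784974 in suspension libraries and to between 36451255 and 40882433 in adherent ones, and 3 counts of a gene made between 0.0594 and 0.0756 CPM, the unit of all levels below (counts relative to the library total, adjusted for composition by TMM). A table sums all droplets of its library, so fewer cells of a type and less RNA per cell cannot be told apart. Reads rather than molecules were counted, and the intervals below, all of 95%, cover counting error only. Counts come from the 3′ ends of transcripts, so changes and not levels are compared between genes. Whether the days are separate cultures is not given in the labels, and p-values then reflect the spread among these 6 libraries alone.

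Suspension libraries held few counts of the 10 genes, and fewer on each later day. Summed over the 10 genes, the level was 87.6, 20.1 and 7.80 CPM in suspension on days 4, 5 and 6, against 756, 250 and 149 CPM in adherent libraries. These sums are 0.00826%, 0.00191% and 0.000682% of the gene counts in suspension, against 0.0843%, 0.0273% and 0.0157% in adherent libraries. All 10 genes were lower on each later day in suspension, an order that 24.9% of all tested genes had, and all 10 were lower on each later day in adherent libraries, against 21.9% of tested genes. The median gene of the 10 had a day 6 level of 0.0658 times that of day 4 in suspension and 0.220 times in adherent libraries, beside medians of 0.991 and 1.06 over all tested genes. The median fitted log2 ratio of suspension over adherent was -3.32 for the 10 genes and near 0 (-0.002) for all tested genes. Every suspension library lay below every adherent one for 8 of the 10 genes, as for 34.4% of all tested genes, and Cdh1 and Cldn4 were the exceptions. By edgeR's quasi-likelihood test at an adjusted p of 0.05, 29.7% of all tested genes were lower and 27.1% higher in suspension, which is the background for the related genes described further on. The genes had been chosen on this contrast, so nothing is read from these counts.

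**Figure D1:**
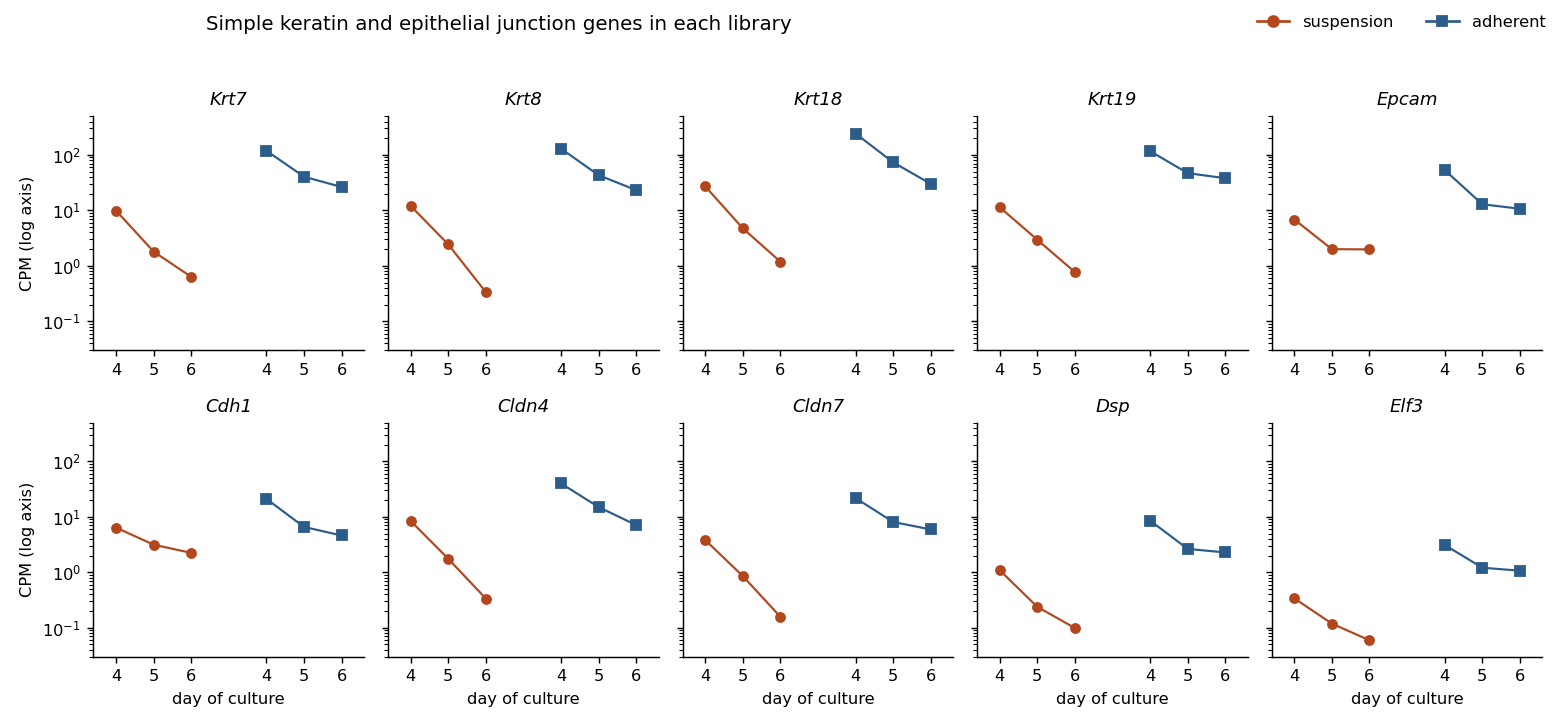
Level of each of the 10 genes in each library, in CPM on a log axis, against the day of culture, with the 3 suspension libraries left (circles) and the 3 adherent libraries right (squares) in each panel. Each point is 1 library and lines join the days of a fraction. Every line falls from day 4 to day 6, and those of Epcam and Cdh1 in suspension fall least, to 1.98 and 2.24 CPM on day 6.

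Krt8 and Krt18 form the first keratin pair made in simple epithelia. Krt8 (chromosome 15, 101996698 to 102004482, minus strand) had 501, 103 and 17 counts in suspension on days 4, 5 and 6, against 5618, 1711 and 996 counts in adherent libraries. These are levels of 12.1, 2.45 and 0.337 CPM in suspension and 130, 43.1 and 23.2 CPM in adherent libraries. The suspension library of day 6 was far below the others, and its level was 36.0-fold lower than on day 4 (22.3 to 62.4), the largest such drop of the 10 genes. The drop in adherent libraries was 5.59-fold (5.22 to 5.98). Krt18 (chromosome 15, 102028180 to 102032027, plus strand) lies next to Krt8 and is read in the opposite direction. It had 27.2, 4.77 and 1.19 CPM in suspension, against 243, 73.5 and 30.1 CPM in adherent libraries. Its highest suspension library thus lay just below its lowest adherent library, a day 4 and a day 6 library. The drop over the days was 22.9-fold (17.7 to 30.2) in suspension and 8.08-fold (7.62 to 8.56) in adherent libraries, where it was the largest of the 10 genes. The count ratio of Krt8 to Krt18 was 0.446, 0.515 and 0.283 in suspension and 0.534, 0.586 and 0.772 in adherent libraries. The pair thus did not keep a fixed ratio, and the ratio was higher on each later day in adherent libraries.

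Krt7 and Krt19 are keratins of ducts, airways and mesothelium. Krt7 (chromosome 15, 101411043 to 101430313, plus strand) had 410, 76 and 32 counts in suspension, against 5170, 1607 and 1132 counts in adherent libraries. Its levels were 9.93, 1.81 and 0.634 CPM in suspension and 119, 40.5 and 26.4 CPM in adherent libraries, and the fractions did not overlap. Krt19 (chromosome 11, 100140810 to 100148665, minus strand) had 11.4, 2.95 and 0.772 CPM in suspension, against 117, 46.9 and 38.0 CPM in adherent libraries. Between days 4 and 6 Krt7 was lower by 15.7-fold (10.9 to 23.2) in suspension and 4.52-fold (4.24 to 4.83) in adherent libraries. For Krt19 the drops were 14.7-fold (10.6 to 21) in suspension and 3.07-fold (2.90 to 3.25) in adherent libraries. The count ratio of Krt18 to Krt19, type I chains both, was 2.39, 1.61 and 1.54 in suspension and 2.08, 1.57 and 0.790 in adherent libraries, so Krt19 was the more retained of the 2 in both fractions. The fitted log2 ratios of suspension over adherent were -3.92 ± 1.11 (SE) for Krt7, -3.72 ± 1.25 for Krt8, -3.39 ± 1.28 for Krt18 and -3.75 ± 0.99 for Krt19. With the day as a block their standard errors were 0.38, 0.53, 0.33 and 0.48.

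Epcam and Cdh1 differed from the other genes in suspension. Epcam (chromosome 17, 87635979 to 87651129, plus strand) had 283, 84 and 100 counts in suspension, against 2314, 514 and 460 counts in adherent libraries. In CPM these are 6.85, 2.0 and 1.98 in suspension and 53.4, 12.9 and 10.7 in adherent libraries. The suspension level was flat from day 5 to day 6, with a ratio of 0.989 (0.733 to 1.34), while that of Krt8 over the same step was 0.137 (0.0769 to 0.230). Cdh1 (chromosome 8, 106603351 to 106670246, plus strand) had 264, 132 and 113 counts in suspension, against 915, 261 and 198 counts in adherent libraries. Its levels of 6.39, 3.15 and 2.24 CPM in suspension overlapped the 21.1, 6.57 and 4.61 CPM of adherent libraries, since the day 4 suspension library lay above the day 6 adherent library. From day 4 to day 6 Epcam was lower by 3.46-fold (2.75 to 4.39) in suspension and 4.98-fold (4.51 to 5.52) in adherent libraries. Cdh1 was lower by 2.86-fold (2.28 to 3.59) in suspension and 4.58-fold (3.92 to 5.36) in adherent libraries. The other 8 genes had a day 6 level in suspension of at most 0.25 times that on day 4, as did 7.71% of all tested genes, a limit set after the values were seen. The fitted log2 ratios were -2.83 ± 0.83 (SE) for Epcam and -1.46 ± 0.67 for Cdh1. The ratio of Cdh1 was the nearest to 0 of the 10 genes, and that of Cldn4 (-2.57) was nearer to 0 than that of Epcam. The count ratio of Cdh1 to Epcam was 0.933, 1.57 and 1.13 in suspension and 0.395, 0.508 and 0.430 in adherent libraries, with no overlap.

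Some genes also had reads on the opposite strand. For Cdh1 these were 6.38% (3.83 to 9.90), 13.7% (8.70 to 20.2) and 5.04% (1.87 to 10.7) of its reads on both strands in suspension on days 4, 5 and 6, against 1.82% (1.07 to 2.90), 0.382% (0.00966 to 2.11) and 2.94% (1.09 to 6.29) in adherent libraries (exact binomial intervals). They rest on 45 suspension and 24 adherent reads in all. No other annotated gene overlaps Cdh1. Krt7, Krt8 and Elf3 overlap annotated genes of the opposite strand, and the values above use sense reads only. Cldn4 also had a higher antisense share in suspension, 5.38% (3.51 to 7.83), against 1.6% (1.16 to 2.16) in adherent libraries, summed over the days. So did Krt7, with 2.45% (1.31 to 4.15) in suspension and 0.265% (0.164 to 0.405) in adherent libraries. For Cldn7 the shares were 4.72% (2.28 to 8.50) in suspension and 3.79% (2.91 to 4.86) in adherent libraries. Over all libraries the antisense share of the other genes was between 0.0761% for Krt19 and 1.95% for Elf3. For all genes together, antisense counts were 3076268 to 4273211 in suspension libraries, beside sense counts of 43805361 to 57784974. In adherent libraries they were 2425984 to 2910441, beside 36451255 to 40882433.

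Cldn4 (chromosome 5, 134945119 to 134946934, minus strand) and Cldn7 (chromosome 11, 69964779 to 69967885, plus strand), the claudins of the set, followed the keratins. Cldn4 had 8.45, 1.76 and 0.337 CPM in suspension, against 40.1, 15.0 and 7.11 CPM in adherent libraries. The fractions overlapped, since the day 4 suspension library was above the day 6 adherent library. Cldn7 had 158, 36 and 8 counts in suspension, against 947, 321 and 254 counts in adherent libraries. Its 3.83, 0.858 and 0.158 CPM in suspension lay below the 21.8, 8.08 and 5.92 CPM of adherent libraries. Between days 4 and 6 Cldn4 was lower by 25.1-fold (15.5 to 43.6) in suspension and 5.64-fold (4.99 to 6.39) in adherent libraries. For Cldn7 the drops were 24.2-fold (12 to 56.9) in suspension and 3.69-fold (3.21 to 4.26) in adherent libraries. The count ratio of Cldn4 to Cldn7 was 2.21, 2.06 and 2.12 in suspension, against 1.83, 1.86 and 1.2 in adherent libraries. The suspension ratio of day 6 rests on 17 and 8 counts, too few to tell whether it changed. The fitted log2 ratios were -2.57 ± 1.14 (SE) for Cldn4 and -2.90 ± 1.07 for Cldn7.

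Dsp and Elf3 had the fewest counts. Dsp (chromosome 13, 38151294 to 38198577, plus strand) had 45, 10 and 5 counts in suspension, against 370, 105 and 98 counts in adherent libraries. In CPM these are 1.09, 0.238 and 0.099 in suspension and 8.54, 2.64 and 2.28 in adherent libraries. Elf3 (chromosome 1, 135253575 to 135258568, minus strand) had 14, 5 and 3 counts in suspension, against 135, 48 and 46 counts in adherent libraries. Its 0.339, 0.119 and 0.0594 CPM in suspension end at the level of 3 counts, and adherent libraries had 3.11, 1.21 and 1.07 CPM. Neither gene overlapped between fractions. Both passed the filter on low counts through the adherent libraries. The drop in suspension from day 4 to day 6 was 11-fold (4.38 to 35.5) for Dsp and 5.71-fold (1.59 to 31.0) for Elf3, so the Elf3 interval covers the drops of all the other genes but Krt8. The fitted log2 ratios were -3.25 ± 0.97 (SE) for Dsp and -3.39 ± 0.76 for Elf3.

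Set against the adherent library of the same day, 8 of the 10 genes were relatively lower in suspension on each later day, and Epcam and Cdh1 went the other way. The share of all tested genes with either course was not computed, so nothing is read from this count. Krt8 was 10.7-fold lower in suspension on day 4 (9.75 to 11.7), 17.6-fold on day 5 (14.4 to 21.6) and 68.9-fold on day 6 (42.8 to 119). Krt19 was lower by 10.3-fold, 15.9-fold and 49.2-fold, and Cldn7 by 5.71-fold, 9.42-fold and 37.4-fold. Elf3 was lower by 9.19-fold (5.29 to 17.3), 10.1-fold (4.06 to 32.7) and 18.0-fold (5.80 to 90.7), and these intervals overlap. Epcam was lower by 7.79-fold (6.89 to 8.85) on day 4, 6.47-fold (5.13 to 8.25) on day 5 and 5.41-fold (4.35 to 6.79) on day 6. Cdh1 was lower by 3.30-fold (2.88 to 3.80), 2.09-fold (1.69 to 2.60) and 2.06-fold (1.63 to 2.62), so its days 5 and 6 hardly differed. There is 1 library behind each of these values, so the intervals hold no spread between cultures.

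**Figure D2:**
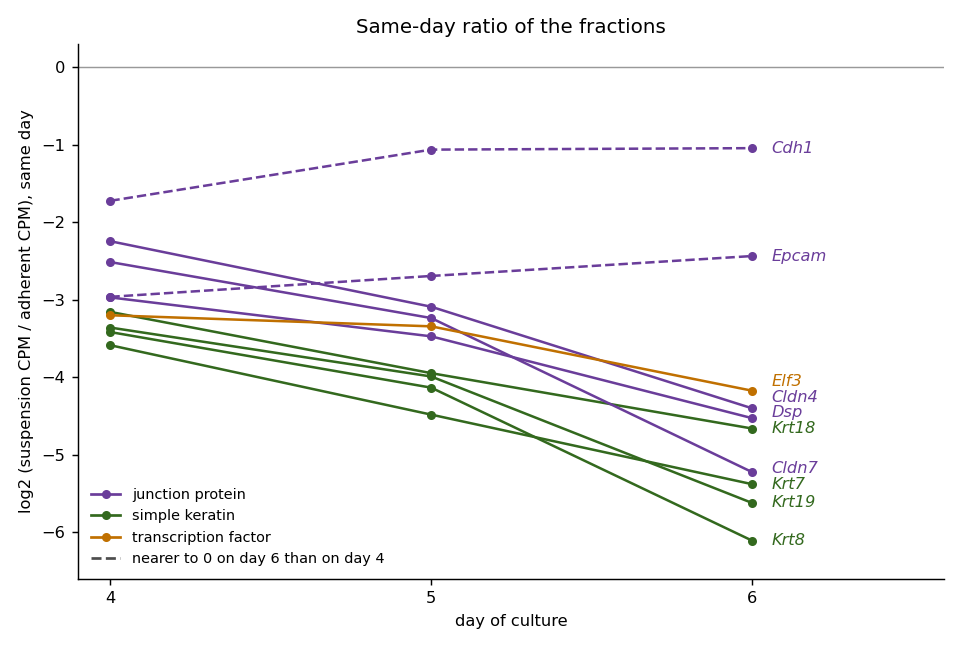
Log2 ratio of the suspension level over the adherent level of the same day for each of the 10 genes, against the day of culture, coloured by the kind of protein. Each point compares 1 suspension library with 1 adherent library, and 0 marks equal levels. On day 6 the values run from -6.11 for Krt8 to -1.04 for Cdh1, and the dashed lines of Epcam and Cdh1 move toward 0 while the other 8 move away from it.

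The make-up of the counts moved with this. Epcam and Cdh1 together gave 15.1% (14.0 to 16.3), 25.6% (22.7 to 28.7) and 54.1% (49.0 to 59.1) of the counts of the 10 genes in suspension on days 4, 5 and 6. In adherent libraries they gave 9.85% (9.53 to 10.2), 7.79% (7.27 to 8.34) and 10.3% (9.53 to 11). The 4 keratins gave 69.2%, 59.6% and 37.6% in suspension, against 80.4%, 81.4% and 78.8% in adherent libraries (exact binomial intervals, on totals of 3618, 844 and 394 counts in suspension and 32787, 9945 and 6411 in adherent libraries). Within the adherent keratins, Krt19 took 15.4%, 18.7% and 25.5% of the counts of the 10 genes and Krt18 took 32.1%, 29.3% and 20.1%.

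**Figure D3:**
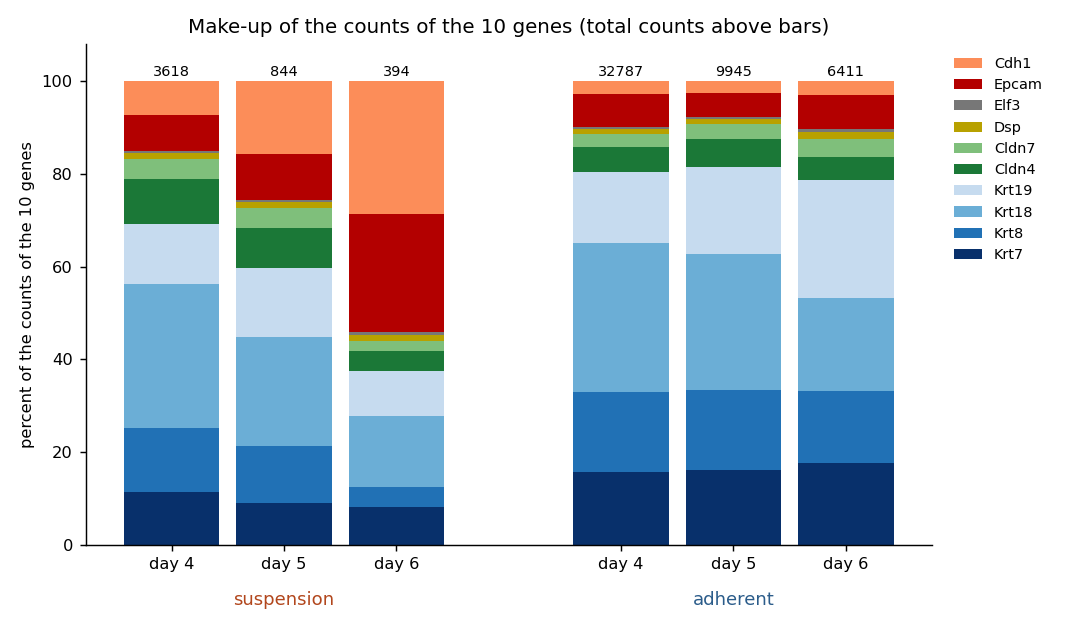
Share of each of the 10 genes in their summed counts, in percent, for the 3 suspension libraries (left) and the 3 adherent libraries (right), with the summed count above each bar. The red and orange parts (Epcam and Cdh1) widen to 54.1% by day 6 in suspension and stay between 7.79% and 10.3% in adherent libraries.

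Related epithelial genes outside the 10 were lower in suspension more often than higher. Of 81 listed, 67 passed the filter, and by edgeR's quasi-likelihood test (adjusted over all 14912 genes) 33 fell in suspension, 7 rose and 27 did not pass. Their median log2 ratio was -2.24. The count of those lower was 18 without the day 5 suspension library, and the count of those higher was 3 without the day 5 adherent library. In 42 of the 67 every suspension library was below every adherent one, as in 34.4% of all tested genes. In 8 every one was above, an order whose share over all tested genes was not computed.

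Among other keratins 3 of 10 passed the filter. Krt23 was lower at 0, 0.143 and 0 CPM in suspension, against 1.04, 0.756 and 0.466 CPM in adherent libraries (log2 -3.96 ± 1.08 SE, edgeR adjusted p = 0.0200). With the day as a block 2 of the 3 were lower, and the call of Krt23 was lost without the day 4 suspension library (adjusted p = 0.0519) or the day 5 adherent library (0.0570). Krt17 was not called, at 1.14, 0.214 and 0 CPM in suspension and 8.88, 0.655 and 0.210 CPM in adherent libraries, and neither was Krt80, at 3.24, 2.36 and 2.59 CPM in suspension and 2.45, 0.831 and 1.61 CPM in adherent libraries. Both were named after their values were seen.

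Tight junction genes fell in 10 and rose in 3 of 19 tested. Tjp1 (ZO-1), a scaffold of tight junctions in epithelium and endothelium alike, fell to 3.50 ± 1.11 CPM in suspension, against 71.2 ± 15.7 CPM in adherent libraries (SD, n = 3 each; log2 -4.35 ± 0.31 SE, edgeR adjusted p = 0.00039). Cldn18, a claudin of alveolar cells, fell to 3.68, 1.95 and 0.139 CPM in suspension, against 51.1, 24.9 and 21.1 CPM in adherent libraries (log2 -4.09 ± 0.96 SE, edgeR adjusted p = 0.0113). F11r (JAM-A), which blood cells also carry, fell by 1.07 on the log2 scale, with an edgeR adjusted p of 0.0451. It did not pass without the day 5 or 6 suspension library or the day 4 or 5 adherent library (0.0852 to 0.139). Cldn1, Tjp3 (ZO-3) and Marveld2 (tricellulin) rose. Cldn1 had 3.58, 2.60 and 4.89 CPM in suspension, against 1.04, 0.932 and 2.05 CPM in adherent libraries. The log2 ratios were 1.46 ± 0.41 (SE) for Cldn1, 1.37 ± 0.33 for Tjp3 and 1.4 ± 0.39 for Marveld2 (edgeR adjusted p = 0.0221, 0.0132 and 0.0219). None of the 3 passed without the day 5 adherent library (0.0525 to 0.0753). Cldn1 also failed to pass without the day 6 suspension library or the day 4 adherent library, and Marveld2 without the day 4 or 5 suspension library. The count of 10 lower genes was 4 without the day 5 suspension library and 6 without the day 4 or 5 adherent library.

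Desmosome and adherens junction genes fell in 9 and rose in 1 of 15 tested. Ctnna1 and Ctnnd1, the alpha and p120 catenins that bind cadherins of many tissues, differed little. Ctnna1 had 81.9, 88.1 and 84.0 CPM in suspension, against 161, 153 and 126 CPM in adherent libraries (log2 -0.79 ± 0.12 SE, edgeR adjusted p = 0.00207), and Ctnnd1 had a log2 ratio of -0.46 ± 0.10 (adjusted p = 0.00823). Nectin2, an adhesion protein of epithelium and endothelium, fell to 8.67, 6.43 and 4.08 CPM in suspension, against 78.0, 76.1 and 55.1 CPM in adherent libraries (log2 -3.45 ± 0.31 SE, adjusted p = 0.00057). Perp, a membrane protein of desmosomes and a p53 target, rose to 20.5, 17.8 and 10.8 CPM in suspension, against 5.88, 1.74 and 3.49 CPM in adherent libraries (log2 2.14 ± 0.47 SE, edgeR adjusted p = 0.00891). These 4 calls held when any 1 library was left out.

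Regulators of the epithelial state fell in 6 of 15 tested and rose in none. Nkx2-1, the factor that defines lung epithelium, fell to 1.5, 0.191 and 0.0792 CPM in suspension, against 10.3, 5.79 and 6.03 CPM in adherent libraries (log2 -3.66 ± 0.99 SE, edgeR adjusted p = 0.0193). Sox9, a factor of the distal lung tips, fell by 3.08 on the log2 scale (SE 0.74, adjusted p = 0.0125), and Foxa2 was at -3.43 ± 0.85 (adjusted p = 0.0140). Without the day 5 suspension library the count was 3, with adjusted p-values of 0.0659 for Nkx2-1 and 0.0572 for Foxa2, and without the day 4 suspension library it was 11.

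Surface and trafficking genes of epithelium fell in 7 and rose in 3 of 15 tested. Sfn (stratifin) had 5.86, 1.81 and 0.931 CPM in suspension, against 49.6, 13.8 and 14.6 CPM in adherent libraries (log2 -3.19 ± 0.84 SE, edgeR adjusted p = 0.0180). Muc1, a membrane mucin, fell by 2.81 on the log2 scale (SE 0.62, adjusted p = 0.00893), and Rab25, a GTPase of epithelial recycling, by 3.13 (SE 1.11, adjusted p = 0.0493). Without the day 5 suspension library the adjusted p was 0.0711 for Sfn and 0.146 for Rab25, and Rab25 did not pass without the day 6 suspension library or the day 4 or 5 adherent library either. Cd24a, a surface protein that many blood cells also carry, rose to 78.9, 89.6 and 120 CPM in suspension, against 41.9, 34.6 and 29.6 CPM in adherent libraries (log2 1.44 ± 0.20 SE, edgeR adjusted p = 0.00181). Spint1, an inhibitor of membrane-bound serine proteases, rose to 74.1, 67.2 and 39.3 CPM in suspension, against 15.3, 19.3 and 12.7 CPM in adherent libraries (log2 1.93 ± 0.28 SE, adjusted p = 0.00196). The count of 7 lower genes was 1 without the day 5 suspension library, 2 without the day 4 or 5 adherent library, and 4 without the day 6 suspension library.

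**Figure D4:**
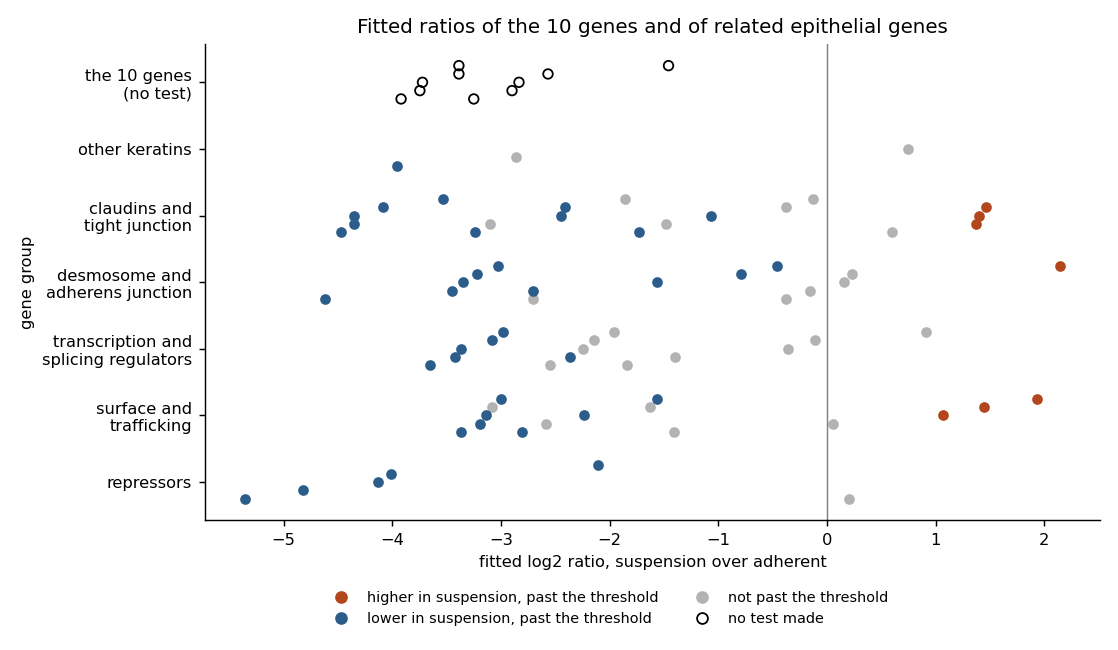
Fitted log2 ratio of suspension over adherent for the 10 genes (open circles, no test made), for related epithelial genes by group and for repressors of the epithelial state. Each point is 1 gene, filled by whether it passed an adjusted p of 0.05 in edgeR's quasi-likelihood test, and points are spread vertically for sight only. The 10 genes lie between -3.92 and -1.46, and the 7 related genes past the threshold on the right belong to 3 of the 5 groups.

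The trend over the days could not be tested in the 10 genes, which were chosen on it, and was tested in the related ones. A slope common to both fractions passed in 0.0134% of all tested genes by edgeR's quasi-likelihood test, and in 0 of the 67 related genes. At an unadjusted p under 0.05 the slope was falling in 38 of the 67 and rising in 0, beside 1285 falling and 1751 rising among all genes. DESeq2 called 24 of the 67 falling and 0 rising, beside 738 falling and 739 rising in all. The fitted slope was below 0 in 62 of the 67. The share of all tested genes with a slope below 0 was not counted, and their median slope was 0.0242. Of the 67, 46 were lower on each later day in suspension and 40 in adherent libraries, against 24.9% and 21.9% of all tested genes.

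Genes of the repressors of the epithelial state were lower in suspension, the fraction with fewer counts of the 10 genes. By edgeR's quasi-likelihood test 5 of 6 fell and none rose. Snai1 had 2.62, 1.19 and 0.832 CPM in suspension, against 45.7, 41.2 and 43.5 CPM in adherent libraries (log2 -4.82 ± 0.43 SE, adjusted p = 0.000557). Snai2 had 1.14, 0.596 and 0.356 CPM in suspension, against 23.4, 25.7 and 35.6 CPM in adherent libraries (log2 -5.35 ± 0.44 SE, edgeR adjusted p = 0.000487). Zeb1, Twist1 and Twist2 were at -2.10 ± 0.21, -4.14 ± 0.60 and -4.01 ± 0.90 on the log2 scale (adjusted p = 0.000697, 0.00203 and 0.00982). Zeb2, which blood cells also express, was not called, at 251, 293 and 302 CPM in suspension and 168, 214 and 351 CPM in adherent libraries (edgeR adjusted p = 0.541). Without the day 6 adherent library it was called higher in suspension (adjusted p = 0.0240). Fibroblasts and endothelium express several of these factors too, and their markers were lower in suspension as well, as given below. Their part in these values was not tested.

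Markers of lung epithelium and mesothelium, cells that could carry the 10 genes, were summed in each library. Mesothelial markers (8 genes, 4 of them at 0 in every suspension library) summed to 3.70, 1.36 and 0.238 CPM in suspension, against 60.8, 18.3 and 12.1 CPM in adherent libraries, with the 6 libraries in the same order as for the 10 genes. These sums are mostly Msln, except in the adherent library of day 6, where Msln made 5.94 and Nkain4 4.73 of the 12.1 CPM. Msln, the mesothelial marker with the highest level, had 3.46, 1.29 and 0.218 CPM in suspension, against 58.3, 14.2 and 5.94 CPM in adherent libraries (edgeR adjusted p = 0.0273, and 0.0539 to 0.0956 without the day 5 or 6 suspension library or the day 4 adherent library), and Nkain4 was lower too (log2 -6.29 ± 0.70 SE, adjusted p = 0.000913). Other mesothelial markers ran the other way over the days in adherent libraries, with 1.48, 3.27 and 4.73 CPM for Nkain4 and 0.415, 0.529 and 0.909 CPM for Upk1b. Markers of alveolar type 1 cells (7 genes) summed to 117, 88.3 and 63.2 CPM in suspension, against 412, 266 and 205 CPM in adherent libraries, again in the same order. In suspension these sums are mostly Pdpn, at 59.9, 36.3 and 26.9 CPM, and Hopx, at 38.2, 35.5 and 31.5 CPM. Of the 7 markers 4 fell and Hopx rose by edgeR's test, but Hopx did not pass without the day 4 or 5 suspension library. Emp2 had 6.49, 6.43 and 0.812 CPM in suspension, against 154, 105 and 63.6 CPM in adherent libraries, and Pdpn was not called (adjusted p = 0.0562, but 0.00449 with the day as a block).

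Alveolar type 2 markers (8 genes) took another course in adherent libraries, with sums of 366, 181 and 159 CPM in suspension and 998, 231 and 969 CPM in adherent libraries. In suspension the sums of days 5 and 6 are mostly Napsa, at 121, 125 and 120 CPM on the 3 days, and Abca3, at 30.2, 31.4 and 31.8 CPM. On day 4 Sftpc, at 167 CPM, was the largest part of the suspension sum. The 6 markers other than Napsa and Abca3 were lower on each later day in suspension, like the 10 genes. Sftpc, the surfactant gene that defines these cells, had 167, 19.6 and 6.81 CPM in suspension, against 766, 120 and 773 CPM in adherent libraries, and was not called (edgeR adjusted p = 0.0832, but 0.0467 with the day as a block). The adherent library of day 6 was thus as high in Sftpc as that of day 4, while the 10 genes were 2.91-fold to 8.08-fold lower. Of the 8 markers 1 fell and 2 rose, with the day as a block 4 fell, and without the day 4 suspension library there were 6. Napsa, a protease that macrophages also make, was among the genes that rose (log2 2.85 ± 0.18 SE, adjusted p = 0.000342). Airway secretory markers (6 genes) summed to 4.07, 1.88 and 0.733 CPM in suspension, against 5.01, 63.0 and 70.6 CPM in adherent libraries. They were thus lower on each later day in suspension, as the 10 genes were, and higher on each later day in adherent libraries, where the 10 genes were lower. Scgb1a1, the club cell secretoglobin, had 2.93, 1.43 and 0.634 CPM in suspension, against 2.61, 59.1 and 61.3 CPM in adherent libraries (edgeR adjusted p = 0.0172, but 0.0947 with the day as a block), and Cyp2f2 fell (adjusted p = 0.00630). Ciliated markers (6 genes) summed to 6.34, 4.41 and 4.04 CPM in suspension, against 8.84, 5.89 and 11.8 CPM in adherent libraries, where Tppp3 was called lower in suspension (adjusted p = 0.0202, but 0.0697 and 0.0586 without the day 5 and the day 6 suspension library) and Cfap126 was not (0.748). Basal markers (5 genes, with Trp63 and Krt15 the highest and none past the filter) summed to at most 0.143 CPM in suspension and 1.79 CPM in adherent libraries. Neuroendocrine markers (5 genes, mostly Calca, with Resp18 next) summed to 0.533, 3.12 and 0.772 CPM in suspension and 0.461, 2.42 and 8.46 CPM in adherent libraries, and Calca was not called (adjusted p = 0.479). What part any of these cells had in the levels of the 10 genes was not tested.

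**Figure D5:**
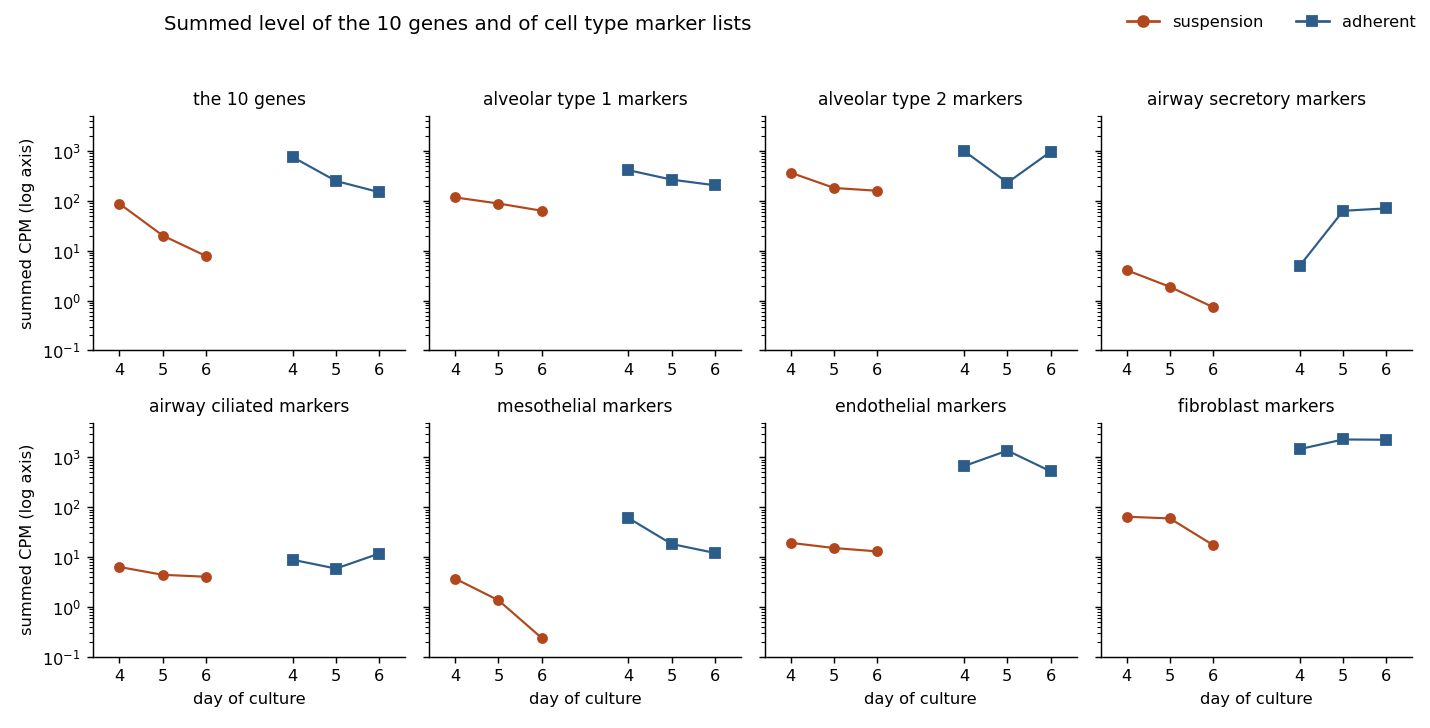
Summed CPM of the 10 genes and of 7 marker lists in each library, on a log axis, against the day of culture, with suspension left (circles) and adherent right (squares). Each point is 1 library. The mesothelial and alveolar type 1 panels have the same order of libraries as the 10 genes, while the adherent sums of alveolar type 2 and airway secretory markers on day 6 are 969 and 70.6 CPM, as high as or higher than on earlier days but for the 998 CPM of alveolar type 2 markers on day 4.

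The labelled fractions were checked by their other markers. Endothelial markers (7 genes) summed to 19.3, 15.2 and 13.0 CPM in suspension, against 671, 1370 and 525 CPM in adherent libraries, and fibroblast markers (7 genes) to 64.6, 59.7 and 17.4 CPM in suspension, against 1470, 2290 and 2260 CPM in adherent libraries. All 14 fell in suspension by edgeR's test, Cldn5, Egfl7, Col1a1 and Col1a2 among them. The adherent libraries thus held fibroblast and epithelial counts after a sort for VE-cadherin. Macrophage markers (7 genes) summed to 18800, 17100 and 18700 CPM in suspension, against 2670, 3430 and 6880 CPM in adherent libraries. Of these 6 rose, with Lyz2 the highest, and C1qb did not pass (adjusted p = 0.0523, but 0.00872 with the day as a block). Mast cell and basophil markers (6 genes) summed to 98.0, 156 and 137 CPM in suspension and 31.6, 89.0 and 99.2 CPM in adherent libraries, and dendritic markers (7 genes) to 2.74, 3.72 and 5.72 CPM in suspension and 2.40, 2.57 and 2.26 CPM in adherent libraries. Of the 6 mast cell and basophil markers 2 rose, 0 fell and 4 were not called by edgeR's test. The 2 with the highest level, Cpa3 and Mcpt8, were among those not called (adjusted p = 0.451 and 0.0757). Mcpt8, at 31.6 CPM, was the whole adherent sum of day 4, and its mean was lower in suspension. Of the 4 dendritic markers tested 2 rose, Ccl17 among them (0.00607), and 1 fell, Zbtb46 (0.00302). The share of uniquely mapped reads outside the sense strand of any gene was 20.9% to 21.2% in suspension and 31.1% to 34.9% in adherent libraries.

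Over the 6 libraries, the Pearson correlations between each of the 10 genes and their mean profile were 0.938 for Cdh1 to 0.996 for Cldn7. Each gene is part of that mean, and the genes were chosen on these values, so nothing is read from the height of these correlations. The correlations carry no p, since the fractions form separate clusters and the libraries share their days. Outside the lists, the 8 genes most like this mean profile were Clu, Prr15l, Eppk1, Gpx2, Brix1, Npm3, Ankrd1 and Actg2, with correlations of 0.9995 for Clu to 0.9940 for Actg2. Clu, which encodes the secreted chaperone clusterin, had 25.7, 5.6 and 2.67 CPM in suspension, against 242, 60.6 and 37.8 CPM in adherent libraries. Gpx2, a glutathione peroxidase of epithelia, had 3.78, 1.26 and 0.277 CPM in suspension, against 45.8, 9.44 and 6.92 CPM in adherent libraries. Actg2, a smooth muscle actin, had 6.17, 0.524 and 0 CPM in suspension, against 164, 39.0 and 21.1 CPM in adherent libraries. Brix1, a ribosome assembly factor, kept the same order of libraries over a far smaller range, with 53.6, 47.2 and 43.3 CPM in suspension and 67.5, 57.4 and 54.6 CPM in adherent libraries.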

How the data were processed

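The deposited tables hold the authors' read counts per gene for 6 whole libraries (3 suspension, 3 adherent), with 31053 gene identifiers, 4 summary lines that were left out, and separate columns for reads on either strand, the sense strand and the antisense strand. The submitters' processing notes name bcl2fastq, Cell Ranger, STARsolo and mm10, without versions. The counts have no cell axis and no correction for molecular identifiers. Reads that map to several places were not counted as unique, which can lower genes with near-identical copies, such as Krt8 with its processed pseudogene. Symbols and coordinates came from GENCODE M21, which held 31011 of the identifiers, and promoters from RefSeq (GRCm38.p6).

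Sense counts were filtered with filterByExpr, scaled by TMM and fitted with edgeR 4.0.16 (limma 3.58.1, R 4.3.3) by glmQLFit and glmQLFTest, suspension over adherent, on all 14912 genes that passed, of 22019 with any count. The Benjamini-Hochberg adjustment ran over those genes, and the threshold was 0.05. The ± after a log2 ratio is an approximate SE. A slope per day was fitted with the fraction as a term, and the difference of slopes as their interaction. DESeq2 1.42.0 and the other alternatives are covered in the closing section. The scripts were tested on simulated counts with 200 changed genes. The labels give both fractions the same days. The deviations of same-day libraries from their fraction means had correlations across genes of 0.338, 0.140 and 0.282, against -0.305 to 0.013 for libraries of different days, so the days were taken to pair the libraries. The main fraction contrast did not use this pairing, since the fraction was its only term. Its p-values and SEs are thus unpaired, and the day entered as a block in an alternative fit, named where its values are given.

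The 10 genes and all lists were chosen with earlier results of these data known. Named were the 10 genes, the 3 called genes with the highest mean CPM in each direction and related group, all repressors, the 8 genes outside the lists with the most similar profile (mean of at least 1 CPM) and the 2 highest markers of each cell type. A related gene that this rule names is not reported here.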

Additional observations from a re-analysis of the deposited data

Results flagged for a closer look

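Slc34a2, a phosphate transporter of alveolar type 2 cells, had 7.26, 0.286 and 0 CPM in suspension on days 4, 5 and 6, against 27.9, 12.8 and 16.4 CPM in adherent libraries. Its slope per day was lower in suspension than in adherent libraries by -4.389 on the log2 scale (edgeR interaction, adjusted p = 0.0485), the only listed gene among the 77 of 14912 whose slopes differed. The slope rests on a suspension library at 0 counts on day 6, so its size depends on the prior count of the fit. The slopes of the 10 genes were not tested.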

How the results depend on the processing

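The fitted log2 ratio of each of the 10 genes stayed below 0 under every alternative run and every library left out (for Cdh1 between -2.06 and -0.51), and so did the slope per day. Of the 125 recomputed ratios 12 moved by more than their spread, all of them without the day 4 suspension or the day 4 adherent library. The median ratio of the 10 genes was between -4.72, without the day 4 suspension library, and -2.31, without the day 4 adherent library, and it was -3.50 with the day as a replicate block. With that replicate block 43 related genes were lower and 6 higher, and 4343 and 4074 of all genes, and no count other than those of the other keratins and of the alveolar type 2 markers moved by over 1.5 times. Demanding 10 CPM or more in 3 libraries, and so testing fewer genes, left 2741 genes lower and 2365 higher, among them 10 and 2 related genes. Leaving out 1 library gave 18 to 41 related genes lower and 3 to 7 higher, and 0 to 4 falling and 0 to 11 rising genes for the day trend. DESeq2 called 738 genes falling and 739 rising over the days, 24 related genes falling among them. Without a filter the day trend had 39 falling and 27 rising genes, 3 related ones falling, and with counts thinned to the smallest library 0 rising. With 1 library left out, Cfap126 ranged from -0.236 to 0.01 and Calca from -2.527 to 1.23, and the sign turned for Cfap126 without the day 6 suspension library and for Calca without the day 6 adherent library. Neither was called. The cause was not tested. Counts of 17 or fewer on day 6 limit Krt8, Cldn4, Cldn7, Dsp and Elf3 in suspension.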
